A study of Mus musculus with 12 samples.

Results

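The genes described here are 10 that encode the elastic fibre and the enzymes that cross-link it: the lysyl oxidases Lox, Loxl1, Loxl2 and Loxl3, elastin (Eln), the microfibril proteins Fbn1 and Mfap5, and the fibulins Fbln1, Fbln2 and Fbln5. They were taken by symbol from the 35896 genes that the deposited transcript tables cover, and all 10 of them passed the filter on low counts that left 12052 genes for testing. The series addressed how transcripts of the mouse uterus change over the estrous cycle. Whole uteri of 12 wild-type female Swiss Webster mice (an outbred stock), aged 8 to 12 weeks, were collected, 3 each in proestrus, estrus, metestrus and diestrus, with no treatment named in the labels. Polyadenylated RNA was read by 3' TagSeq, which reads a short piece at the 3' end of each transcript, and no molecular identifier was described, so counting limits cover counting error only. Samples are named by stage and by the replicate number in their titles: 1, 2 and 3 in proestrus, 3, 4 and 5 in estrus and in diestrus, and 5, 6 and 7 in metestrus.

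An elastic fibre has a core of elastin laid on a scaffold of fibrillin microfibrils. Fibulins bind tropoelastin, the soluble monomer, and bring it to the microfibrils, and lysyl oxidases, copper-dependent enzymes outside the cell, oxidise lysines so that elastin and collagen become cross-linked. In the female reproductive tract these fibres give the wall its recoil, and mice that lack Loxl1 or Fbln5 are known for prolapse of the pelvic organs.

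Each library held between 1652841 and 2200563 estimated counts, and 3 counts, the most that a listed 0 can stand for, equalled 1.37 to 1.83 CPM (counts scaled by library size and TMM factors). Members had at least 23 counts in every sample. The 6 uterine identity genes Esr1, Pgr, Hoxa10, Hoxa11, Hoxd10 and Emx2 were all measured. In the F test 4 of 6 differed among stages, against 23.2% of all tested genes. They summed to 833 to 942 CPM in proestrus, 583 to 614 in estrus, 884 to 1000 in metestrus and 1000 to 1130 in diestrus, with 4 higher in diestrus than in estrus (median log2 difference 1.30), and their part in the members' differences was not tested. The 3 metestrus libraries lay farther apart than those of the other stages for several members, and the values below are given for each of them. How an animal was staged, and the batch and time of dissection, are not given in the sources used here. The p-values measure the spread between these uteri.

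A difference among the stages was found for all 10 of the members tested (F test of the edgeR quasi-likelihood fit, with p-values adjusted by Benjamini-Hochberg and a threshold of 0.05), against 23.2% of all tested genes, and the count was also 10 without the 3 metestrus libraries, where 35.7% of the 11770 genes tested were called. Members were chosen with earlier results of these data known, so their count beside the share of all genes is a description only. Eln, Fbln2 and Mfap5 were highest in proestrus, Lox and Fbln1 in estrus, and Loxl1, Loxl2, Loxl3, Fbn1 and Fbln5 in diestrus. Adjusted p-values of the F test were 0.00017 for Lox, 0.00796 for Fbln2, 0.00975 for Loxl1, 0.0101 for Eln, 0.0111 for Mfap5, 0.0154 for Fbln5, 0.0214 for Fbln1, 0.0256 for Loxl2, 0.0295 for Loxl3 and 0.0479 for Fbn1. Leaving out estrus replicate 5, diestrus replicate 3 or diestrus replicate 5 made the count 6. In whole tissue, fewer cells of a type and less RNA per cell cannot be told apart, and this holds for every difference given here.

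The widest separation was between estrus and diestrus, where 9 of 10 members differed, against 22.8% of all tested genes. Loxl1, Loxl2, Loxl3, Eln, Fbn1, Fbln5 and Mfap5 were higher in diestrus, Lox and Fbln1 were lower, and Fbln2 did not pass the test. The median log2 difference of diestrus against estrus was 0.85 over the members and 0 over all tested genes. Without estrus replicate 3 or without diestrus replicate 5, 5 members passed.

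Between proestrus and estrus 4 members differed, against 17.1% of all tested genes: Eln, Mfap5 and Fbln2 fell and Fbln1 rose. The members' median log2 difference was -0.63, against 0.02 over all tested genes. That count was 2 without estrus replicate 4 or without estrus replicate 5, 7 without metestrus replicate 6, and 8 without the 3 metestrus libraries, where 23.9% of all tested genes were called. From estrus to metestrus 3 members differed, against 7.56% of all tested genes, with Loxl1 and Mfap5 higher and Lox lower in metestrus and a median over the members of 0.44. It was 1 without any one of estrus replicates 3, 4 and 5 or without metestrus replicate 6, and 5 without metestrus replicate 5.

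From metestrus to diestrus, Lox alone passed the test and fell, against 0.224% of all tested genes. Lox did not pass without proestrus replicate 1, estrus replicate 5, metestrus replicate 5 or any one diestrus library, where 0 members passed in edgeR (4 at an unadjusted p under 0.05 in each of these fits), and the count was 2 without metestrus replicate 6 or without metestrus replicate 7. Proestrus differed from diestrus in 4 members, against 8.53% of all tested genes, with Lox and Fbln2 higher and Loxl3 and Fbln5 lower in proestrus. The count was 1 without proestrus replicate 1 or 3 or without diestrus replicate 4 or 5, and 2 without proestrus replicate 2 or without diestrus replicate 3. Metestrus differed from proestrus in Fbln2, which was lower, against 4.31% of all tested genes. No member passed there in edgeR without proestrus replicate 2 (5 at an unadjusted p under 0.05), proestrus replicate 3 (2) or metestrus replicate 7 (3), and 4 passed without metestrus replicate 6. The 6 contrasts share samples, so their counts are not separate evidence.

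**Figure D1:**
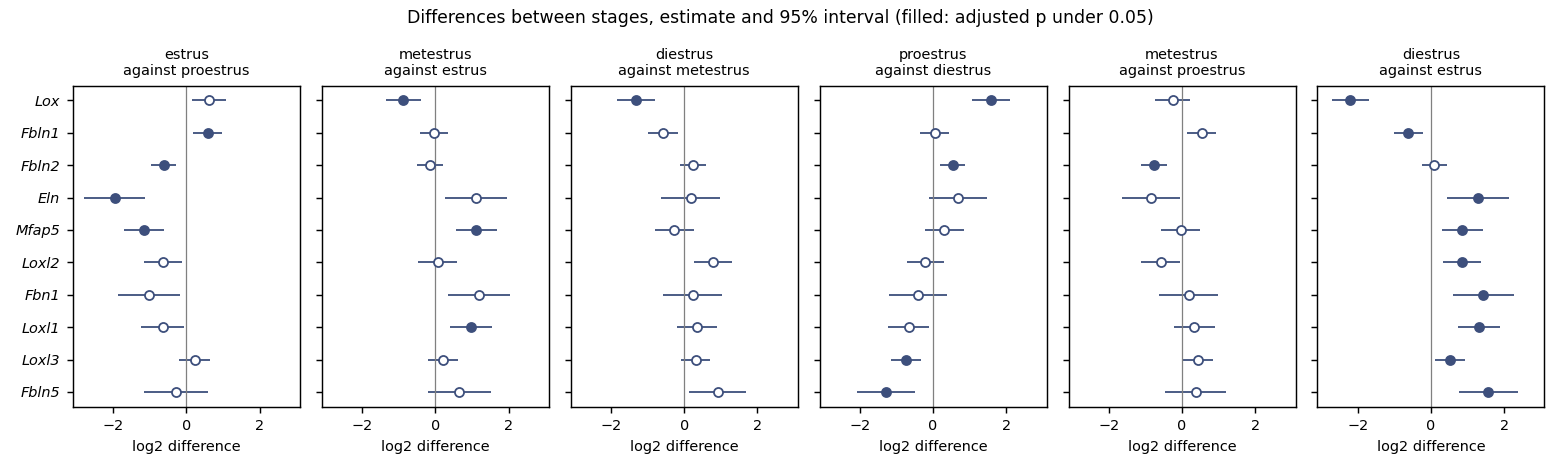
Log2 difference of each of the 10 genes in the 6 contrasts between stages, with the estimate as a point and its 95% interval as a line; filled points have an adjusted p under 0.05 (edgeR, n = 3 uteri per stage). In diestrus against estrus 9 points are filled, 7 to the right of 0 and those of Lox and Fbln1 to the left.

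Markers of some of the cell types that a uterus holds moved with the stages as well, and their part in the members' differences was not tested. Of 7 stromal fibroblast markers 5 differed among stages (F test), against 23.2% of all tested genes. The 7 summed to 3960 to 4340 CPM in proestrus, 4680 to 5460 in estrus, 3690 to 6020 in metestrus and 3210 to 4240 in diestrus. Of 8 smooth muscle markers 5 differed, with sums of 6490 to 9140 CPM in proestrus, 8740 to 11200 in estrus, 5690 to 7780 in metestrus and 6470 to 6860 in diestrus. In diestrus against estrus 1 of the 7 stromal markers was higher and 1 lower (median log2 difference 0.15), against 22.8% of all tested genes. Dcn was the largest part of the stromal sum, with 3400 ± 301 CPM in estrus and 1740 ± 301 in diestrus (SD, n = 3 each). The mean stromal sum was 5160 CPM in estrus and 3820 CPM in diestrus. Of the 8 smooth muscle markers 3 were lower in diestrus (median -0.48). All 7 epithelial markers differed, summing to 1130 to 1490 CPM in proestrus, 1140 to 1430 in estrus, 468 to 941 in metestrus and 476 to 651 in diestrus. In diestrus against estrus 6 of these 7 were lower and 0 higher (median log2 difference -1.34), against 22.8% of all tested genes. Of 6 leukocyte markers tested 5 differed, with sums of 58.8 to 72.8, 149 to 213, 77.0 to 140 and 60.8 to 108 CPM for proestrus, estrus, metestrus and diestrus. Of these 6, 2 were lower and 0 higher in diestrus than in estrus (median -0.86), against the same 22.8%. For adventitial fibroblasts 1 of 4 tested markers differed (25%), with sums of 245 to 278, 508 to 683, 302 to 530 and 251 to 331 CPM. That marker, Ly6a, stood at 122 ± 18 CPM in proestrus and 512 ± 106 in estrus (SD, n = 3 each) and made up most of the estrus sum. For pericytes 1 of 5 differed (20%), with sums of 217 to 248, 287 to 307, 324 to 381 and 373 to 434 CPM. Both shares were near that of all tested genes. None of 6 endothelial markers passed in edgeR, DESeq2 or limma-voom (1 at an unadjusted p under 0.05 in edgeR), nor did any of 3 mesothelial markers (0 at an unadjusted p under 0.05). The 4 adipocyte markers summed to at most 4.57 CPM in a sample, and 6 ovary and oviduct markers to between 19.8 and 66.2 CPM, of which 1 of 2 tested differed.

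Promoters of 4 members are in the RefSeq table used here (build GRCm38.p6: Fbn1, Fbln1, Fbln2 and Fbln5, with 6 start sites). Of these, 3 are printed because diestrus had the lowest stage mean of Fbln1 and the highest of Fbn1 and Fbln5. For Fbln1, proestrus was close to diestrus (log2 difference 0.04 ± 0.17, edgeR adjusted p = 0.936). Each run is the 250 bases before an annotated start, 5′ to 3′ on the gene's strand, and capitals mark a motif match. The Fbln1 window lies at chr15:85205699-85205948 on the plus strand, the Fbln5 window at chr12:101819120-101819369 on the minus strand and the Fbn1 window at chr2:125506439-125506688 on the minus strand.
Fbln1: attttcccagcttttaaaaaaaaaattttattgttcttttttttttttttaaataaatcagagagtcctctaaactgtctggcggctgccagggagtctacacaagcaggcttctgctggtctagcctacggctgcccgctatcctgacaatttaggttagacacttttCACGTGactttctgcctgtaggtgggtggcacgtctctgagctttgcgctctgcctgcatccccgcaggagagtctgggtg
Fbln5: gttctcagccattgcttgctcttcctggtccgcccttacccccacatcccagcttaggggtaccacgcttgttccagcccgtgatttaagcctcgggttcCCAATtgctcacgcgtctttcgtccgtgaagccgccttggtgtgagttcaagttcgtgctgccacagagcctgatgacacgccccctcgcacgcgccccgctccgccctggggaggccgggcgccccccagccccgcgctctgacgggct
Fbn1: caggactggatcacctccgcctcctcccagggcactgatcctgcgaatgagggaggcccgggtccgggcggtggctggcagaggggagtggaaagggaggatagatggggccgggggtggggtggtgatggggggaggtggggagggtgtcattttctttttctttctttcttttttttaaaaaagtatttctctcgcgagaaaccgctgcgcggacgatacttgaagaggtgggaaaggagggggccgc
The motifs searched on both strands were TGANTCA (AP-1), AGGTCA (nuclear receptor half-site), CACGTG (E-box), CCAAT and TATAAA. No 2 matches overlapped. Fbln1 held CACGTG, with its first base 81 bases before the start, a motif found in 6.02% of the 32851 promoters of this length in the table. The printed Fbln5 window held CCAAT, 150 bases before the start, a motif found in 33.8% of them. The Fbn1 window held none of the 5 motifs, of which the others occurred in 6.75% (TGANTCA), 14.0% (AGGTCA) and 12.4% (TATAAA) of the promoters. The share of G and C was 46.4% in the Fbln1 window, 65.2% in that of Fbln5 and 59.2% in that of Fbn1, with a median of 52.4% over the table. The other annotated start of Fbln1 had a window with 62.4% G and C, and the same CACGTG lay 140 bases before it. That of Fbln5 had 49.6% G and C and none of the 5 motifs.

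Lox encodes the founding lysyl oxidase, which acts on both elastin and fibrillar collagens (ENSMUSG00000024529, GRCm38 chromosome 18, 52516067 to 52529867, minus strand). Its level was 110, 84.1 and 135 CPM in the proestrus samples, 144, 197 and 165 in estrus, 109, 64.4 and 102 in metestrus and 34.9, 34.6 and 40.8 in diestrus. All 3 estrus samples lay above the other 9 and all 3 diestrus samples below them, while proestrus and metestrus overlapped. Lox was 168 ± 26.8 CPM in estrus and 36.8 ± 3.47 in diestrus (SD, n = 3 each), 4.58-fold lower in diestrus (log2 difference -2.20 ± 0.22, edgeR adjusted p = 3.57e-05; log2 differences are given ± SE throughout). It was higher in proestrus than in diestrus by 1.58 ± 0.22 on the log2 scale (edgeR adjusted p = 0.000862). Both of these differences passed with any one of the 12 libraries left out.

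The calls of Lox through metestrus were sensitive to single libraries, though the differences kept their sign. With any one left out the log2 difference was -1.02 to -0.65 for metestrus against estrus and -1.53 to -1.18 for diestrus against metestrus. Metestrus was lower than estrus by a log2 difference of -0.87 ± 0.21 (edgeR adjusted p = 0.0245), which became 0.112 and 0.076 when estrus replicates 4 and 5 were left out in turn and 0.0896 with metestrus replicate 6 left out. Diestrus was lower than metestrus by -1.33 ± 0.22 (edgeR adjusted p = 0.0327). That p was 0.0706 without proestrus replicate 1, 0.0574 without estrus replicate 5, 0.0805 without metestrus replicate 5, and 0.0883, 0.142 and 0.0848 without diestrus replicates 3, 4 and 5. It was also 0.0691 in limma-voom and 0.226 with only the 6 samples of these stages. Estrus stood above proestrus by 0.62 ± 0.21 with no overlap of the samples, and this missed the threshold (edgeR adjusted p = 0.0557).

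Loxl1, the family member most tied to elastin maintenance (ENSMUSG00000032334, chromosome 9, 58287738 to 58313186, minus strand), ran the other way. It measured 53.6, 58.2 and 82.2 CPM in proestrus, 42.1, 38.9 and 43.1 in estrus, 98.5, 95.9 and 49.5 in metestrus and 91.2, 90.0 and 128 in diestrus. Every estrus sample was below the other 9, and every diestrus sample above every proestrus sample. The rise from estrus, 41.3 ± 2.17 CPM, to diestrus, 103 ± 21.9 CPM (SD, n = 3 each), was 2.49-fold (log2 difference 1.32 ± 0.25, edgeR adjusted p = 0.00234) and passed with any one library left out. The difference from estrus to metestrus was 0.98 ± 0.25 (edgeR adjusted p = 0.0333). Metestrus replicate 7, at 49.5 CPM, lay between the estrus samples and the other metestrus samples. Leaving out estrus replicate 3, 4 or 5 gave adjusted p-values of 0.0885, 0.0983 and 0.0958 for that difference, and leaving out metestrus replicate 5 or 6 gave 0.0696 and 0.099. In limma-voom it was 0.0586.

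Loxl2, which cross-links collagens including collagen IV of basement membranes (ENSMUSG00000034205, chromosome 14, 69609068 to 69695834, plus strand), measured 100, 81.4 and 109 CPM in proestrus, 47.6, 70.9 and 67.3 in estrus, 59.1, 85.8 and 49.5 in metestrus and 117, 85.0 and 135 in diestrus. Proestrus and diestrus samples all lay above the estrus samples and overlapped each other. Loxl2 rose from 62.0 ± 12.5 CPM in estrus to 112 ± 25.1 in diestrus (SD, n = 3 each; log2 difference 0.85 ± 0.23, edgeR adjusted p = 0.0158), with an adjusted p of 0.0698 without estrus replicate 3 and 0.0706 without diestrus replicate 5. Its F test lost the call without estrus replicate 3 (0.0577) or 5 (0.0517) and without diestrus replicate 3 (0.065) or 5 (0.0705). Loxl2 is uncertain, because 46.4% of its 31-base stretches also occur in transcripts of other genes, chiefly Gm21451, with 0 counts in every sample, and Gm16867, with 264 counts over all samples. With the counts of Gm16867 added to Loxl2, an alternative chosen after seeing the data, the F test gave an adjusted p of 0.0907, while diestrus against estrus still passed (log2 difference 0.65, edgeR adjusted p = 0.0476).

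Loxl3, an amine oxidase of the same family (ENSMUSG00000000693, chromosome 6, 83034173 to 83052562, plus strand), measured 25.7, 30.7 and 21.3 CPM in proestrus, 25.4, 36.0 and 29.3 in estrus, 32.2, 37.2 and 36.4 in metestrus and 41.9, 45.0 and 44.1 in diestrus. The 3 diestrus samples were above the other 9, and the metestrus samples above those of proestrus. Loxl3 was lower in proestrus, 25.9 ± 4.71 CPM, than in diestrus, 43.7 ± 1.61 CPM (SD, n = 3 each; log2 difference -0.75 ± 0.18, edgeR adjusted p = 0.0174). That adjusted p was 0.0557 and 0.0813 without proestrus replicates 1 and 3, and 0.0583 and 0.0527 without diestrus replicates 4 and 5. The rise from estrus to diestrus was 0.53 ± 0.18 (edgeR adjusted p = 0.0435). It was 0.0562 without proestrus replicate 1, 0.144 and 0.115 without estrus replicates 3 and 5, and 0.0777, 0.0917 and 0.0983 without diestrus replicates 3, 4 and 5. DESeq2 gave 0.0897 for it and the unfiltered fit 0.0626. The F test of Loxl3 gave 0.0682 and 0.0757 without proestrus replicates 1 and 3, 0.0574 without estrus replicate 5, and 0.0621, 0.0739 and 0.0748 without diestrus replicates 3, 4 and 5.

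The 3' end of Loxl3 overlaps Htra2 on the opposite strand over 535 exonic bases, and 9.84% of its 31-base stretches are shared with that gene. Htra2 held 0 to 3 counts in the estrus samples and 17 to 34 in diestrus, and the sources used here do not say whether counting used strand, so reads of the 2 genes cannot be told apart there. With Htra2 counts added, an alternative chosen after seeing the data, the F test of Loxl3 gave an adjusted p of 0.00789. Because Htra2 was itself lower in estrus than in diestrus, this sum cannot tell whether its reads were counted as Loxl3, which was not tested.

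Elastin, the core protein of the fibre, had the lowest estrus level relative to proestrus of the 10 members. Eln (ENSMUSG00000029675, chromosome 5, 134702593 to 134747323, minus strand) measured 123, 120 and 218 CPM in proestrus, 45.8, 38.3 and 34.8 in estrus, 44.1, 145 and 69.2 in metestrus and 83.3, 85.5 and 122 in diestrus. The estrus samples lay below every proestrus and diestrus sample, and metestrus replicate 5 lay among them while metestrus replicate 6 lay among the proestrus samples. Eln fell 3.89-fold from 154 ± 55.9 CPM in proestrus to 39.6 ± 5.60 in estrus (SD, n = 3 each; log2 difference -1.96 ± 0.37, edgeR adjusted p = 0.00358), a difference that passed with any one library left out. It was higher in diestrus than in estrus by 1.29 ± 0.37 (edgeR adjusted p = 0.022). That p was 0.0621 and 0.0801 without estrus replicates 4 and 5 and 0.0824 without diestrus replicate 5. Metestrus against estrus gave 1.11 ± 0.37 and did not pass (edgeR adjusted p = 0.0862), and proestrus and diestrus overlapped.

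The counts of Eln came from transcripts with separate 3' ends. The full coding transcript ends at 134702593, and Eln-205, annotated as a retained intron, ends 23010 bases upstream at 134725603. The coding transcript stood at 143 ± 56.6, 29.4 ± 3.25, 75.1 ± 50.4 and 83.1 ± 15.7 CPM from proestrus to diestrus, and Eln-205 at 10.4 ± 1.74, 10.3 ± 3.53, 10.7 ± 4.64 and 13.7 ± 8.47 CPM (SD, n = 3 each). Proestrus and estrus thus differed in the coding transcript with no overlap, while the Eln-205 ranges of all 4 stages overlapped. Eln-205 held 7.44, 10.3 and 4.46% of the gene's counts in proestrus, 31.1, 19.4 and 26.3% in estrus, 12.9, 7.90 and 21.6% in metestrus and 5.39, 18.1 and 17.4% in diestrus. That share rested on 9 to 37.3 counts per sample and did not pass over the 4 genes tested (exact permutation p = 0.0359 over all 15400 partitions of the samples, Benjamini-Hochberg adjusted 0.115). Without Eln-205, an alternative chosen after seeing the data, Eln fell from proestrus to estrus by 2.29 on the log2 scale.

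Fbn1 encodes fibrillin-1, the main subunit of microfibrils (ENSMUSG00000027204, chromosome 2, 125300594 to 125507993, minus strand). Its levels were 66.2, 70.6 and 105 CPM in proestrus, 40.2, 37.8 and 41.2 in estrus, 35.8, 152 and 87.6 in metestrus and 116, 100 and 105 in diestrus. Estrus samples were below all samples of proestrus and diestrus, and the metestrus samples spanned from the lowest to the highest value of all 12. Fbn1 rose 2.69-fold from 39.7 ± 1.78 CPM in estrus to 107 ± 7.89 in diestrus (SD, n = 3 each; log2 difference 1.43 ± 0.36, edgeR adjusted p = 0.0125) and passed with any one library left out. The fall from proestrus had a log2 difference of -1.02 ± 0.37 that missed the threshold (edgeR adjusted p = 0.0714). The rise to metestrus, 1.20 ± 0.37, did too (edgeR adjusted p = 0.0651). The F test of Fbn1, close to the threshold at 0.0479, passed without any one metestrus library and lost the call in each of the other 9 fits with a library left out. Its adjusted p was then 0.0671, 0.0714 and 0.0576 without proestrus replicates 1, 2 and 3, 0.134, 0.14 and 0.134 without estrus replicates 3, 4 and 5, and 0.0923, 0.0689 and 0.0812 without diestrus replicates 3, 4 and 5. In limma-voom it was 0.0659. Gm9913, on the opposite strand, overlaps 2442 exonic bases of Fbn1 and was not analysed here.

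Mfap5 encodes a small glycoprotein of microfibrils (ENSMUSG00000030116, chromosome 6, 122505845 to 122529290, plus strand). It measured 199, 217 and 173 CPM in proestrus, 79.8, 88.7 and 93.9 in estrus, 117, 257 and 200 in metestrus and 142, 198 and 135 in diestrus. All 3 estrus samples were below the other 9, which overlapped among the 3 stages. Mfap5 fell 2.24-fold from 196 ± 22.2 CPM in proestrus to 87.4 ± 7.12 in estrus (SD, n = 3 each; log2 difference -1.16 ± 0.24, edgeR adjusted p = 0.00576), passing with any one library left out. It rose by 1.12 ± 0.24 from estrus to metestrus (edgeR adjusted p = 0.0143, and 0.0549 without estrus replicate 3). Diestrus stood above estrus by 0.85 ± 0.24 (edgeR adjusted p = 0.0203, with 0.071 without estrus replicate 3 and 0.0797 without diestrus replicate 4). The F test gave 0.0566 without estrus replicate 3.

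Fbln1 encodes a secreted glycoprotein found in elastic fibres and basement membranes (ENSMUSG00000006369, chromosome 15, 85205949 to 85286535, plus strand). It measured 98.7, 154 and 140 CPM in proestrus, 198, 176 and 212 in estrus, 180, 161 and 231 in metestrus and 130, 129 and 123 in diestrus. Estrus and metestrus samples lay above every proestrus and diestrus sample. Fbln1 rose from 131 ± 28.8 CPM in proestrus to 195 ± 17.9 in estrus (SD, n = 3 each; log2 difference 0.58 ± 0.17, edgeR adjusted p = 0.0358). This difference was lost in 7 of 12 fits with a library left out, with adjusted p-values of 0.139 and 0.0776 without proestrus replicates 1 and 3, 0.0857, 0.0646 and 0.123 without estrus replicates 3, 4 and 5, and 0.0513 and 0.0522 without diestrus replicates 3 and 4. Diestrus was lower than estrus by -0.62 ± 0.17 (edgeR adjusted p = 0.0207). That p was 0.0542 and 0.079 without estrus replicates 3 and 5, and 0.0567, 0.0629 and 0.0674 without diestrus replicates 3, 4 and 5. The difference of metestrus from proestrus, 0.54 ± 0.17, did not pass (edgeR adjusted p = 0.0915), nor did that of diestrus from metestrus, -0.58 ± 0.17 (edgeR adjusted p = 0.201). The F test was lost without estrus replicate 5 (0.0591) and without diestrus replicate 5 (0.0525).

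Fbln2, a fibulin of basement membranes and elastic fibres (ENSMUSG00000064080, chromosome 6, 91212455 to 91272540, plus strand), was set apart by proestrus alone. Its levels were 81.0, 76.5 and 92.9 CPM in proestrus, 66.2, 46.9 and 50.4 in estrus, 50.3, 51.1 and 45.9 in metestrus and 60.3, 59.8 and 53.8 in diestrus. The proestrus samples were above the other 9, among which estrus overlapped both later stages. Against proestrus, 83.5 ± 8.44 CPM, it was lower in estrus at 54.5 ± 10.3 CPM (SD, n = 3 each; log2 difference -0.62 ± 0.15, edgeR adjusted p = 0.013) and in metestrus at 49.1 ± 2.81 CPM (-0.76 ± 0.15, edgeR adjusted p = 0.0155). The first was 0.0637 without proestrus replicate 3 and 0.0514 and 0.0537 without estrus replicates 4 and 5. The second was 0.0521 and 0.0762 without proestrus replicates 2 and 3 and 0.0522 without metestrus replicate 7. Proestrus stood above diestrus by 0.53 ± 0.15 (edgeR adjusted p = 0.0412). This was lost without proestrus replicates 1, 2 and 3 (0.0856, 0.0733 and 0.166), estrus replicate 5 (0.0532) and diestrus replicates 3, 4 and 5 (0.0924, 0.101 and 0.146). It was also lost in DESeq2 (0.0623), without TMM factors (0.0685) and without the filter on low counts (0.0788). Diestrus and estrus differed by 0.09 with a 95% interval of -0.25 to 0.44 (edgeR adjusted p = 0.699). The F test gave 0.0511 without proestrus replicate 3.

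Fbln5 encodes the fibulin that binds tropoelastin, integrins and Loxl1 (ENSMUSG00000021186, chromosome 12, 101746565 to 101819055, minus strand). It measured 21.7, 17.8 and 21.3 CPM in proestrus, 21.7, 14.3 and 14.2 in estrus, 11.9, 21.5 and 45.9 in metestrus and 50.9, 53.4 and 43.6 in diestrus. Diestrus samples lay above all samples of proestrus and estrus, and of the metestrus samples replicate 7 alone lay among them. Fbln5 rose 2.97-fold from 16.7 ± 4.27 CPM in estrus to 49.3 ± 5.09 in diestrus (SD, n = 3 each; log2 difference 1.57 ± 0.35, edgeR adjusted p = 0.00629), which passed with any one library left out. Proestrus was lower than diestrus by a log2 difference of -1.28 ± 0.34 (edgeR adjusted p = 0.0336). That p was 0.0805, 0.129 and 0.0931 without proestrus replicates 1, 2 and 3, and 0.0877, 0.0992 and 0.0605 without diestrus replicates 3, 4 and 5. The F test gave 0.0538 and 0.0537 without diestrus replicates 3 and 4.

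**Figure D2:**
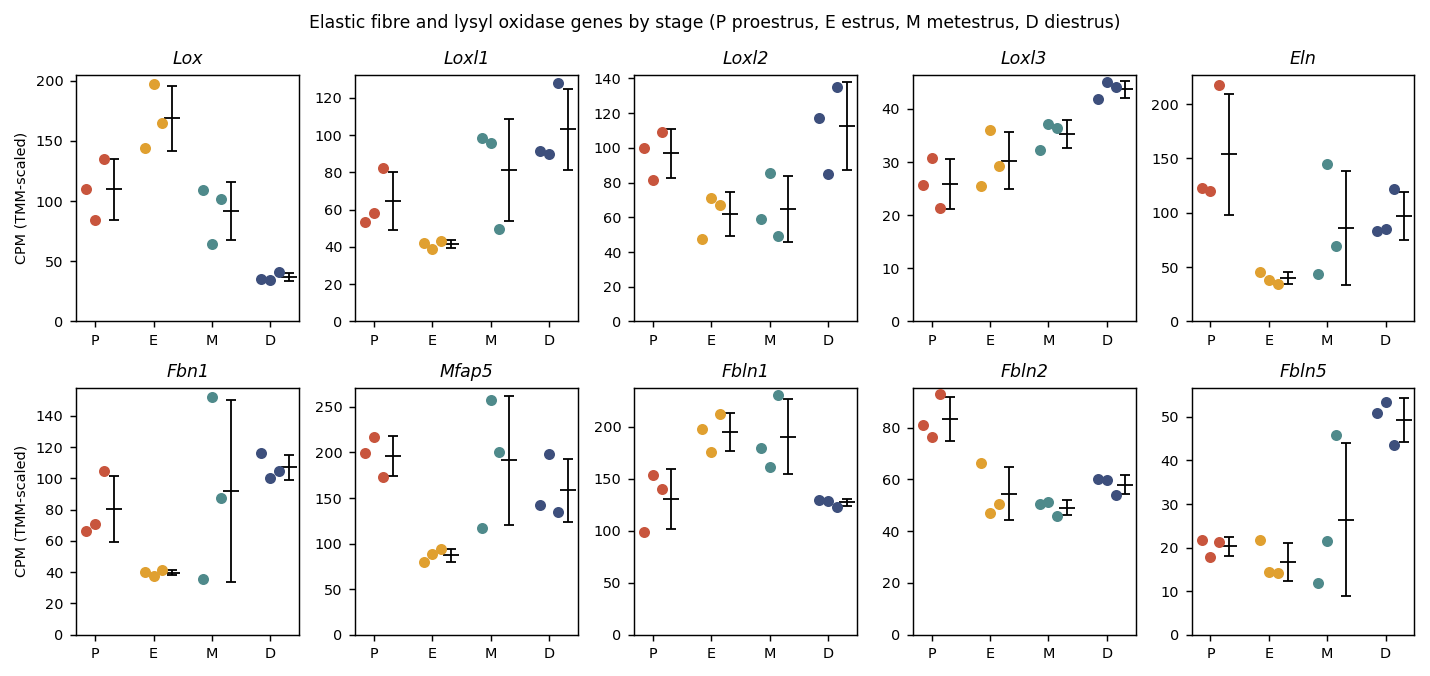
CPM of the 10 genes in each of the 12 uteri, 1 panel per gene, with points for samples in replicate order and the bar at the right of each stage showing the mean and SD (n = 3). Estrus samples of Mfap5 and Loxl1 lie below the other 9, diestrus samples of Lox lie between 34.6 and 40.8 CPM, and metestrus samples of Fbn1 run from 35.8 to 152 CPM.

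Some calls ended when the gene counts or the samples in the fit were changed. With counts scaled from the deposited TPM, which left fewer genes to test, the edgeR adjusted p of the F test was 0.0572 for Eln, 0.0931 for Fbln5, 0.124 for Fbn1, 0.0676 for Loxl2 and 0.108 for Loxl3. Of the contrasts, those counts gave 0.0595 (metestrus against estrus) and 0.0974 (diestrus against metestrus) for Lox, 0.0778 for Loxl1 in metestrus against estrus, 0.0777 for Eln and 0.0542 for Mfap5 in diestrus against estrus, and 0.0605 for Fbln1 in estrus against proestrus. For Loxl3 they gave 0.127 in diestrus against estrus and 0.065 in proestrus against diestrus, a contrast in which Fbln2 was at 0.0623 and Fbln5 at 0.172. With only the 6 samples of the stages compared, metestrus against estrus gave 0.0806 for Lox, 0.0792 for Loxl1 and 0.0591 for Mfap5, and metestrus against proestrus gave 0.0668 for Fbln2.

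Metestrus libraries did not order the members alike. Metestrus replicate 5 had the lowest level of Eln, Fbn1, Fbln5 and Mfap5 in its stage (44.1, 35.8, 11.9 and 117 CPM) and the highest of Lox and Loxl1 (109 and 98.5 CPM). Metestrus replicate 6 had the highest of Eln, Fbn1 and Mfap5 (145, 152 and 257 CPM) and the lowest of Lox (64.4 CPM), and metestrus replicate 7 the highest of Fbln1 and Fbln5 (231 and 45.9 CPM). Each of the 3 libraries thus carried the highest value of some members.

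The 3' end used was tested in 4 members, those with at least 20 counts in every sample and at least 5% of counts in a second end 500 bases or more from the first. None of the 4 passed after adjustment, and Eln alone was under 0.05 before it. For Fbln1, whose coding variants end 34650 bases apart, the upstream variant Fbln1-202 held 51.3 ± 2.63% of counts in proestrus, 50.9 ± 2.94% in estrus, 48.4 ± 1.95% in metestrus and a diestrus share of 45.5 ± 1.87% (SD, n = 3 each; exact permutation p = 0.0575, adjusted 0.115). Every diestrus sample, 43.3 to 46.9%, lay below every proestrus and estrus sample and overlapped metestrus, at 46.1 to 49.5%. For Fbln5, with ends 3372 bases apart, the share of the transcript with the downstream end ran from 19.3 to 63.2% over the 12 samples. Its means were 38.0, 46.7, 42.8 and 54.6% from proestrus to diestrus, and the ranges of the 4 stages overlapped (exact permutation p = 0.47). The Mfap5-207 share ran from 28.6 to 34.7% (exact permutation p = 0.144, adjusted 0.192). No change of 3' end was detectable for Fbln1, Fbln5 and Mfap5 at this depth.

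**Figure D3:**
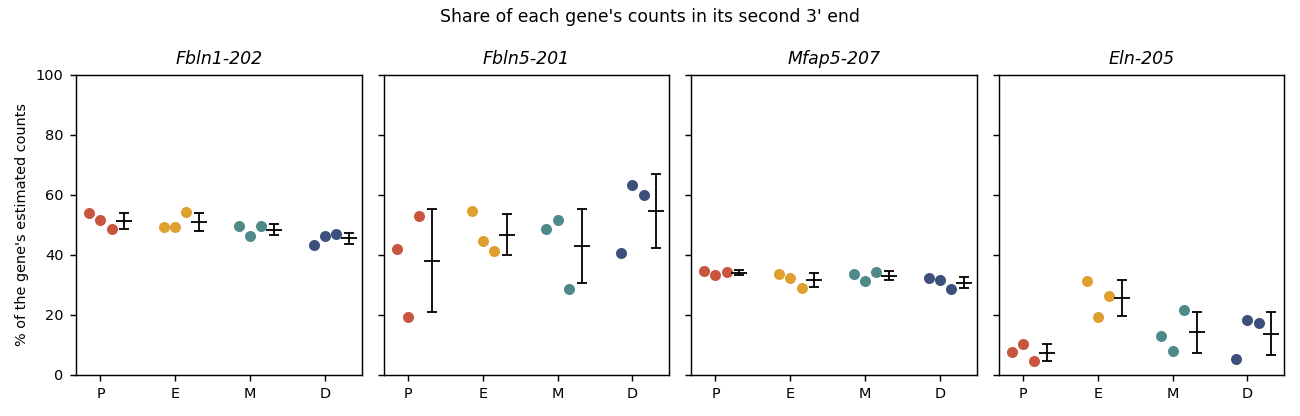
Share of a gene's estimated counts (%) assigned to its second annotated 3' end in each of the 12 uteri, for the 4 genes with a second end in use; points are samples and the bar shows the mean and SD (n = 3). The Eln-205 share is 19.4 to 31.1% in estrus and 4.46 to 10.3% in proestrus, and the Mfap5-207 share stays between 28.6 and 34.7%.

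Members were compared with each other and with all other tested genes by the root-mean-square difference of log2 CPM over the 12 samples, each gene centred on its own mean, as a description with no test. Among members Fbln2 and Loxl2 lay closest (0.43), with Fbn1 and Mfap5 and also Loxl1 and Loxl2 at 0.44 and Eln and Fbn1 at 0.47. Lox lay farthest from the rest, at 0.71 from Fbln1, its nearest member, and 1.44 from Fbln5. Outside the set, of 12042 genes, the nearest to Eln were the cell cycle genes Mcm5 (0.20) and Ccna2 (0.21) and the tubulin Tubb4b (0.21), where the median tested gene lay at 0.88. Nearest to Fbn1 were Rcn3 (0.23), Gm3219 (0.25) and Fkbp10 (0.26), of which Fkbp10 encodes a peptidyl-prolyl isomerase of the endoplasmic reticulum. Lox lay nearest to the transcription factor genes Cebpb (0.26) and Fosl2 (0.27) and to Gprc5a (0.29), against a median of 0.89. For Fbln5 they were Eda (0.27), Maoa (0.28) and Ebpl (0.29), and for Mfap5 Ccdc125, Fam219b and Emp1 (0.23 each). For Loxl1 they were Sall2 (0.17), Tmed1 (0.17) and Lsp1 (0.22), and for Loxl2 Gclc (0.16) and Ccdc24 (0.19). The members with a narrow range lay closer to all genes: for Loxl3 (Trappc8, Usp22 and Gtf2i, 0.14 each), Fbln1 (Retreg2 at 0.13, Coq8a at 0.14 and Cog4 at 0.16) and Fbln2 (Usp14 at 0.15, Lyrm9 and Timm10b at 0.16) the median tested gene lay at 0.47 to 0.50.

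The other genes of the pathway were taken from 4 lists. Of 21 other elastic fibre and microfibril genes 17 were tested and 4 passed the F test (23.5%, against 23.2% of all tested genes). These were Thsd4 (adjusted p = 0.00695), Mfap4 (0.0171), Hspg2 (0.0316) and Efemp1 (0.0451), of which Thsd4 passed with any one library left out. Mfap4, a microfibril glycoprotein that binds elastin, followed the members that were low in estrus, at 111 ± 26.9, 36.1 ± 10.6, 70.2 ± 51.1 and 139 ± 36.4 CPM from proestrus on through the cycle (SD, n = 3 each). It fell from proestrus to estrus (log2 difference -1.62 ± 0.42, edgeR adjusted p = 0.0186) and rose from estrus to diestrus (1.94 ± 0.42, edgeR adjusted p = 0.00492). The rise passed with any one library left out, and the fall gave 0.0696 without proestrus replicate 1 and 0.076 and 0.0511 without estrus replicates 4 and 5, with 0.0656 and 0.0517 for the F test of Mfap4 without those estrus libraries. Thsd4, which promotes microfibril assembly, was lower in diestrus at 11.5 ± 2.62 CPM than in estrus at 36.0 ± 12.4 CPM (log2 difference -1.65 ± 0.32, edgeR adjusted p = 0.00269), and this too passed with any one library left out. Efemp1, or fibulin-3, rose from 15.0 ± 5.81 CPM in proestrus to 46.6 ± 5.31 in estrus (1.62 ± 0.47, edgeR adjusted p = 0.0322). Without proestrus replicates 1, 2 and 3 that p was 0.119, 0.0727 and 0.06, and without estrus replicates 3, 4 and 5 it was 0.0593, 0.094 and 0.0781. The F test of Efemp1 was lost without any one proestrus or estrus library (0.175, 0.12, 0.0872, 0.0722, 0.0779 and 0.0801) and without diestrus replicates 3 and 4 (0.0678 and 0.0596). Hspg2, which encodes perlecan, fell from 75.5 ± 9.68 CPM in estrus to 41.8 ± 9.18 in metestrus (-0.85 ± 0.20, edgeR adjusted p = 0.0213). It was 0.0773 and 0.068 without estrus replicates 3 and 4 and 0.0607 without metestrus replicate 7. The F test of Hspg2 was lost without proestrus replicate 1 (0.0555), any one estrus library (0.0926, 0.0866 and 0.0517), metestrus replicates 5 and 7 (0.0688 and 0.0841) and diestrus replicate 3 (0.0524). In diestrus against estrus 4 of the 17 were higher and 1 lower, where 22.8% of all tested genes were called in either direction, and their median log2 difference was 0.11.

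Of 9 genes of lysyl oxidase activation 6 were tested and 2 passed the F test (33.3%, against 23.2% of all tested genes). Postn, or periostin, a matrix protein that helps Bmp1 to activate lysyl oxidase, stood at 86.1 ± 30.3 CPM in proestrus and 319 ± 16.1 in estrus (SD, n = 3 each; log2 difference 1.88 ± 0.28, edgeR adjusted p = 0.00106). It fell to 103 ± 22.0 CPM in diestrus (-1.63 ± 0.28 against estrus, edgeR adjusted p = 0.0011), so that Lox and Postn were both highest in estrus. Pcolce2, which enhances procollagen cleavage by Bmp1, was higher in proestrus at 33.7 ± 9.62 CPM than in diestrus at 6.06 ± 4.81 CPM (2.44 ± 0.43, edgeR adjusted p = 0.00344). These differences of Postn and Pcolce2 and their F tests passed with any one library left out. Bmp1, the copper transporter gene Atp7a, Pcolce and Fn1 did not pass the F test.

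Of 11 proteases that degrade elastin 7 were tested and 6 passed the F test (85.7%, against 23.2% of all tested genes). All 7 rose from proestrus to estrus, where 17.1% of all tested genes were called in either direction, with a list median log2 difference of 1.59. Ctsl, a lysosomal and secreted cathepsin, rose from 406 ± 84.8 to 1860 ± 383 CPM (SD, n = 3 each; 2.19 ± 0.25, edgeR adjusted p = 0.00026). Mmp7, or matrilysin, rose from 1.01 to 4.31 CPM in the proestrus samples, around the level of 3 counts, to 77.9 to 86.6 CPM in estrus (edgeR adjusted p = 0.000453). Mmp2, a gelatinase, rose from 89.5 ± 16.1 to 252 ± 21.7 CPM (1.49 ± 0.24, edgeR adjusted p = 0.00163) and was still at 245 ± 40.1 CPM in diestrus, whereas Ctsl stood at 263 ± 1.98 CPM there and Mmp7 at 0.989 to 3.40 CPM. Mmp9 (2.39 ± 0.50, edgeR adjusted p = 0.00644), Ctss (1.59 ± 0.30, 0.00358) and Ctsk (1.03 ± 0.28, 0.0217) rose as well, as did Mmp14 (1.32 ± 0.39, 0.0347), which did not pass the F test. The rises of Ctsl, Mmp7, Mmp2, Mmp9 and Ctss passed with any one library left out. That of Ctsk was 0.0689 and 0.0831 without proestrus replicates 1 and 3 and 0.0969 without estrus replicate 4, and that of Mmp14 was 0.108, 0.083 and 0.0961 without proestrus replicates 1, 2 and 3 and 0.0651, 0.0947 and 0.0904 without estrus replicates 3, 4 and 5. The F test of Ctsk (adjusted p = 0.0432) passed without metestrus replicate 5 or 7 alone and was between 0.0521 and 0.132 without any other library. Leukocyte markers summed to 149 to 213 CPM in estrus and 58.8 to 72.8 CPM in proestrus, and their part in the rise of the proteases was not tested.

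Of 8 fibrillar collagens, the other substrates of the lysyl oxidases, 7 were tested and 1 passed the F test (14.3%, against 23.2% of all tested genes). This was Col11a1 (adjusted p = 0.0496), at 7.37 ± 0.539, 3.62 ± 0.825, 14.3 ± 9.71 and 14.8 ± 6.03 CPM from proestrus to diestrus. DESeq2 called 3 of the 7 and limma-voom 0, with 3 at an unadjusted p under 0.05 in edgeR, and without any one library other than metestrus replicate 5 the adjusted p of Col11a1 was between 0.0571 and 0.141. From proestrus to estrus, where 17.1% of all tested genes were called in either direction, 2 of the 7 passed, both lower in estrus. They were Col1a1 (log2 difference -1.07 ± 0.30, edgeR adjusted p = 0.028) and Col5a1 (-1.39 ± 0.39, edgeR adjusted p = 0.0279), and the list median was -0.63. Col1a1 gave 0.0661, 0.0645 and 0.0788 without proestrus replicates 1, 2 and 3 and 0.0676, 0.085 and 0.073 without estrus replicates 3, 4 and 5. Col5a1 gave 0.0655 and 0.0961 without proestrus replicates 1 and 3 and 0.0685, 0.0896 and 0.0781 without estrus replicates 3, 4 and 5.

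**Figure D4:**
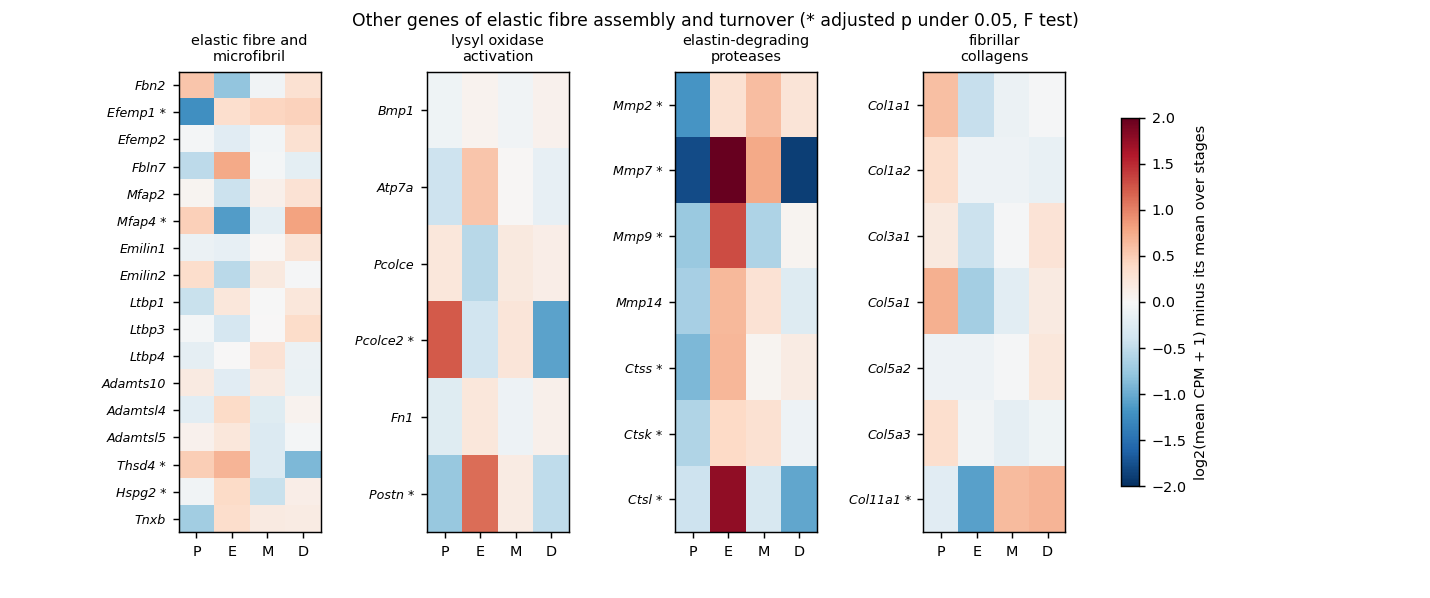
Stage means of the tested genes of the 4 pathway lists, as log2(mean CPM + 1) minus the gene's mean over the 4 stages (colour, red high and blue low); an asterisk marks an adjusted p under 0.05 in the F test. The proteases are red in estrus and blue in proestrus, with Ctsl and Mmp7 the deepest red, whereas Mfap4 is blue in estrus.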

How the data were processed

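RNA of 12 whole uteri was measured by 3' TagSeq. The authors deposited a table per sample with 119414 transcripts, holding estimated counts, TPM and an effective length in bases, per the file headers. FastQC, kallisto and DESeq2 are named in the submitters' processing notes; the transcript set and the use of strand were not given in the sources used here. The deposited estimated counts were not scaled. The deposited TPM values, scaled by the authors for effective length and to a fixed total, were used only in an alternative.

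Transcripts were matched to GENCODE M21 (GRCm38), in which 97.7% were found; the others held 0.619 to 0.774% of counts and were left out. Counts were summed per gene and rounded. After filterByExpr (12052 genes), edgeR 4.0.16 in R 4.3.3 fitted 1 quasi-likelihood model with 4 stage coefficients to all 12 samples, with TMM factors of 0.908 to 1.05 and a biological coefficient of variation of 20.6%. An F test and 6 two-sided contrasts were adjusted by Benjamini-Hochberg over all tested genes, with a threshold of 0.05. Log2 CPM used a prior count of 2. Shares of 3' ends were tested by exact permutation. DESeq2 1.42.0 and limma-voom (limma 3.58.1) were alternatives, as were other scalings and filters, counts scaled from TPM, 6-sample fits and leaving out each library. The code was tested on simulated data.

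Members and lists were chosen with earlier results of these data known. Text names all members; of each pathway list at most the 6 genes of smallest p called in the F test, and counts of marker genes; and the 3 tested genes nearest to each member, of which 1 is not reported here. Col1a1, Col5a1, Mmp14, Bmp1, Atp7a, Pcolce, Fn1 and the markers Dcn and Ly6a, outside that rule, were named after their values were seen. Promoter sequences are from RefSeq. Replicate numbers are shared by estrus and diestrus samples, and the deviations of same-numbered samples from their stage means had correlations of -0.04, 0.01 and -0.02, so the numbers do not pair the samples.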

Additional observations from a re-analysis of the deposited data

How the results depend on the processing

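No member's called difference changed sign under any alternative run. The F test called 10 of 10 members under the chosen settings, 5 with counts scaled from the deposited TPM (which left 9683 genes) and 6 to 10 with a library left out. Estrus against proestrus called 4, and 8 without the filter on low counts, 8 with only those 6 samples, 8 without the 3 metestrus libraries (chosen after seeing the data) and 2 to 7 with a library left out. Metestrus against estrus called 3, and 5 in DESeq2, 5 without the filter, 1 with counts from TPM, 0 with only those 6 samples (5 at an unadjusted p under 0.05 in edgeR) and 1 to 5 with a library left out. Diestrus against metestrus called 1, and 2 without the filter, 0 to 2 with a library left out, 0 in limma-voom (4 at an unadjusted p under 0.05), 0 with counts from TPM (3 unadjusted) and 0 with only those 6 samples (3 unadjusted, both in edgeR). Proestrus against diestrus called 4, and 1 with counts from TPM and 1 to 5 with a library left out. Metestrus against proestrus called 1, and 2 without the filter, 0 with only those 6 samples (4 unadjusted in edgeR) and 0 to 4 with a library left out. Diestrus against estrus called 9, and 5 to 9 with a library left out. Fits from TPM tested fewer genes and 6-sample fits used fewer samples; other causes were not tested.

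Counts over all genes moved by more than 1.5 times in these cases. Without the 3 metestrus libraries they were 4201 against 2793 (F test) and 1563 against 1028 (proestrus against diestrus). From TPM they were 1674 against 2793 (F test), 1269 against 2064 (estrus against proestrus), 410 against 911 (metestrus against estrus), 0 against 27 (diestrus against metestrus), 539 against 1028 (proestrus against diestrus), 157 against 519 (metestrus against proestrus) and 1801 against 2744 (diestrus against estrus). For diestrus against metestrus they were also 153 in DESeq2, 14 in limma-voom, 256 without the filter, 0 with 6 samples and 5 to 173 with a library left out. With 6 samples they were 299 for metestrus against estrus and 42 for metestrus against proestrus, which gave 935 without the filter. With a library left out they were 1100 to 2414 for estrus against proestrus, 341 to 1364 for metestrus against estrus, 519 to 1281 for proestrus against diestrus and 78 to 1080 for metestrus against proestrus.

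Estrus and diestrus share the replicate numbers 3, 4 and 5. With a replicate block diestrus against estrus called 9 members and 2935 genes, but not every sample correlated best with its own number, so the block was given no weight. Members had as few as 23 counts in a sample, which limits the precision of the 3' end shares, and no share passed in any alternative (transcript TPM, each library left out).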
